A study of Mus musculus with 24 samples.

Results

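The hearts described here were taken on day 15 (D15) of experimental autoimmune myocarditis (EAM) in male Balb/c mice (substrain BALB/cAnNCrl), and their RNA was compared across genes with that of control hearts of the same day. The 4 EAM hearts and the 4 control hearts make up 8 of the 24 samples of the series, which also holds hearts of days 10 and 21. Both groups were wild type, were 8 to 10 weeks old at immunization, and received supplemented complete Freund's adjuvant on days 0 and 7 and pertussis toxin on day 0. EAM mice received 100 µg of a MyHC-alpha peptide with each adjuvant injection, and control mice received PBS in its place. Control hearts therefore carried the adjuvant and the toxin, but not the antigen. A portion of each heart was sequenced, and the study's methods say that samples were chosen, where possible, to show inflammation, so the EAM group is not a random draw of immunized mice. Genes were included when at least 10 reads were counted in at least 4 of the 8 hearts, which left 15693 of 41388 genes.

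Alpha-myosin heavy chain is the motor protein of the adult mouse heart, and immunization with a peptide of it in adjuvant raises T cells against cardiac muscle. Leukocytes then enter the myocardium, cytokines such as interferon-gamma act on resident and infiltrating cells through transcription factors such as IRF1, and fibroblasts deposit matrix. The working heart lives mainly on fatty acid oxidation in mitochondria, under control of the nuclear receptors PPAR-alpha and ERR-alpha and their coactivator PGC-1alpha, and its contraction depends on the calcium cycle of the sarcoplasmic reticulum.

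Promoter sequence of 5 genes is shown first, because the first 3 belong to an induced interferon program and the other 2 to a repressed contractile program. Each line holds the 250 bases before the RefSeq start site on the gene's own strand (build GRCm38.p6). Capitals in the first 3 mark the interferon-stimulated response element, searched on both strands as TTTC, any 2 bases and TTTC. The gene Gbp2 lies on the plus strand (window chr3:142620413-142620662), Irgm1 on the minus strand (chr11:48871421-48871670) and Igtp on the plus strand (chr11:58199306-58199555).
Gbp2: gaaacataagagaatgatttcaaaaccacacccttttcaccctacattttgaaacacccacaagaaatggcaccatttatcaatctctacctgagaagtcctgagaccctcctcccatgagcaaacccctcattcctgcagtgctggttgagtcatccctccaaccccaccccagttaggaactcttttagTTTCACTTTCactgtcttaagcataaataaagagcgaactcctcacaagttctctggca
Irgm1: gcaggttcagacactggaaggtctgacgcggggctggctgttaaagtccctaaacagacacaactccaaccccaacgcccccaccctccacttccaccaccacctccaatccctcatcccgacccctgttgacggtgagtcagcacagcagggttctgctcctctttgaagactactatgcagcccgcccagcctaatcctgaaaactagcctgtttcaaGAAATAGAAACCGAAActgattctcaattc
Igtp: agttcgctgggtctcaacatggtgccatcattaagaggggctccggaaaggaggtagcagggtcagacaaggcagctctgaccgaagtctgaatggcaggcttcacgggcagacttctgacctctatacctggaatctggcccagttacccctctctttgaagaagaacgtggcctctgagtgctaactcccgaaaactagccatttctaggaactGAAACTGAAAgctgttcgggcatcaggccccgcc
The match began 59 bases before the start in Gbp2 and 34 in Igtp, and Irgm1 held 2 overlapping matches that began 30 and 24 bases before it. Of all 27025 genes with at least 1 window, 3.46% held the same letters in one of their windows. Only 11 of the 17 interferon-inducible GTPase genes tested had a window, so the share over that list is void. Capitals in the next pair mark the MEF2 motif, searched as CTA, any 4 bases and TAG, in the genes of titin (Ttn, minus strand, chr2:76982548-76982797) and cardiac myosin-binding protein C (Mybpc3, plus strand, chr2:91117894-91118143).
Ttn: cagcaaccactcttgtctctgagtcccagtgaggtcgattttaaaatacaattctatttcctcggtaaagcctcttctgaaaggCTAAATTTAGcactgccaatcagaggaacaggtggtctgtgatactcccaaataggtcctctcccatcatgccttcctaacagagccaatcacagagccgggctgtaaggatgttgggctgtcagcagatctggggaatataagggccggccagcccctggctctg
Mybpc3: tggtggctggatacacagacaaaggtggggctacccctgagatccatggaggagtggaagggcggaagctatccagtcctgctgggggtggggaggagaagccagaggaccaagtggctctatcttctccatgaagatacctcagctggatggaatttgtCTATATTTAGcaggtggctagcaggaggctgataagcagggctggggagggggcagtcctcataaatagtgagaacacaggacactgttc
The motif began 166 bases before the start of Ttn and 90 bases before that of Mybpc3. It was found in a window of 23.8% of the 21 sarcomere genes that have one, of 21.4% of 14 genes of the mostly induced hypertrophic response list and of 3.70% of all genes. These 5 genes were chosen after the matches were seen, and a match describes letters, not binding.

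Total counts ran from 17421059 to 24980864 per heart and were higher in every EAM heart (21617982 to 24980864) than in every control heart (17421059 to 19958265). Where no read was counted, up to 3 remain possible from counting error alone, which is 0.120 to 0.172 CPM (reads of a gene relative to all counted reads of its library) in these libraries. Values below are CPM scaled by the trimmed mean of M values (TMM), listed for hearts 1 to 4 of a group. Fold changes are log2 of EAM over control, with the standard error (SE) and the Benjamini-Hochberg adjusted p of edgeR's quasi-likelihood test over all genes tested. A gene was called induced or repressed with a false discovery rate under 0.01 and at least a 2-fold change, and "rose" and "fell" are used only of called genes. In bulk RNA, fewer cells of a type and less RNA per cell cannot be told apart, and this holds for every value below.

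EAM induced 2838 genes (18.1% of those tested) and repressed 2019 (12.9%), with a median change over all genes of 0.02. The induced program was the steeper one: 1504 induced genes passed 4-fold, 860 passed 8-fold and 484 passed 16-fold. Of the repressed genes 271 passed 4-fold, 29 passed 8-fold and 1 passed 16-fold. Induced genes had a median of 3.91 CPM in control hearts and 22.5 CPM in EAM hearts, whereas repressed genes went from a median of 31.3 CPM to 11.7 CPM. Induced genes took 18.7 to 26.4% of all counts in EAM hearts against 4.81 to 5.22% in control hearts. Repressed genes took 11.3 to 20.4% against 33.8 to 35.2%. All 4 EAM hearts lay above all 4 control hearts for 36.2% of the genes tested and below them for 34.2%. Scaling by total counts in place of TMM raised the median change by 0.15 and gave 3194 induced and 1554 repressed genes.

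**Figure D1:**
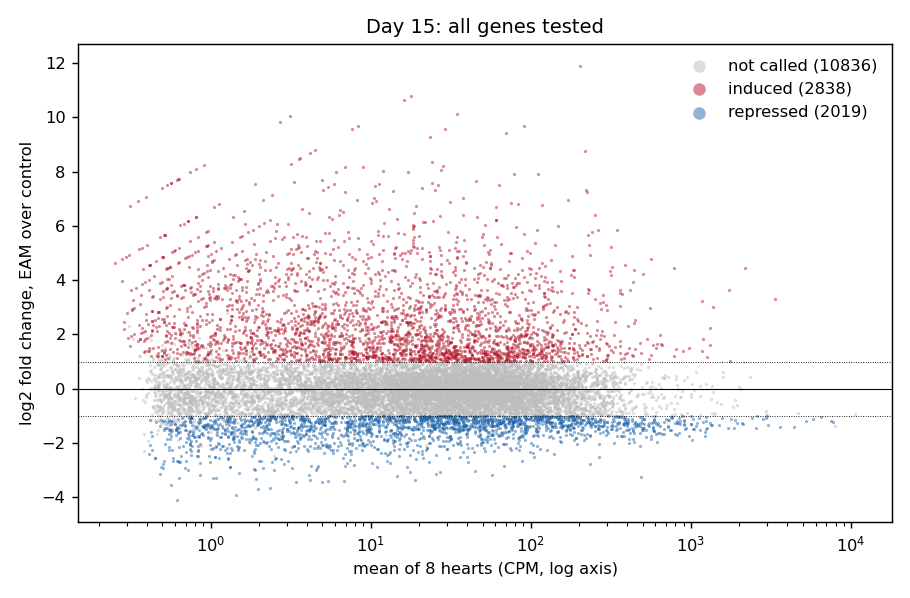
Log2 fold change of EAM over control on day 15 (vertical axis) against the mean CPM of the 8 hearts (horizontal log axis), with 1 point for each of the 15693 genes tested. The 2838 induced genes (red) reach far past 4-fold and lie mostly at low to middle levels, and the 2019 repressed genes (blue) stay closer to the dotted lines at 2-fold and extend to the highest levels.

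The largest fitted fold of the induced genes that met the naming rule belonged to Arg1 (chr10:24915221-24927484, minus strand), which encodes arginase 1, the enzyme that splits arginine into ornithine and urea. It had 0, 0.121, 0.160 and 0.121 CPM in control hearts and 327, 721, 198 and 366 CPM in EAM hearts (log2 fold change 11.91, SE 0.65, adjusted p = 4.36e-07). Its transcript was thus at or near the floor in every control heart and abundant in every EAM heart. No control heart reached 10 reads, so Arg1 passed the filter through the EAM hearts alone and had to differ. Also among the 10 largest fitted folds were those of Pdcd1lg2, which encodes the PD-1 ligand PD-L2, the neutrophil-attracting chemokine gene Cxcl3, the plasminogen activator inhibitor gene Serpinb2, the ribonuclease gene Rnase2a, and Csf3, which encodes G-CSF. Control hearts held 1 read of Pdcd1lg2 and 1 of Cxcl3 between them, so the ratios of 2523 (95% counting interval 453 to 99636) and 2288 (411 to 90392) are loosely bounded. No control heart held a read of Rnase2a or Csf3, which were at least 148-fold and at least 129-fold higher in EAM hearts when set against 3 counts over the control group. The order of these genes by fold is therefore not determined. Altogether 15 tested genes had no read in a control heart, and all 15 were induced. Such genes passed the filter through the EAM hearts alone.

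Among repressed genes that met the naming rule (groups that do not overlap, with 1 CPM or more on average) the largest falls were those of 2900052N01Rik (-3.91), Mettl11b (-3.69), Olfr1396 (-3.65), Gm28979 (-3.46) and Mycn (-3.43). The last encodes a transcription factor of the MYC family. Mycn had 16.2, 6.34, 7.40 and 6.33 CPM in control hearts and 0.881, 0.625, 0.969 and 0.897 CPM in EAM hearts, with control heart 1 well above the rest. Long noncoding RNAs leaned to the repressed side, with 190 of 726 repressed (26.2%) and 113 induced (15.6%), while protein-coding genes were 18.6% induced and 12.3% repressed.

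Gene lists of 38 programs held 843 entries, of which 823 were tested, 16 had too few reads and 4 had no gene of that symbol in the table. In 10 of the lists 1 to 7 members, 24 in all, had no control heart with 10 reads. They passed the filter through the EAM hearts alone and were induced, so counts and medians of those lists are partly set by the filter. The interferon-gamma list held 7 of them, checkpoints 6, and macrophage activation, Fc receptors and iron, heme and acute-phase genes 2 each. GTPases, JAK, STAT and interferon regulatory factors, Toll-like receptors, inflammasome genes and glycolysis held 1 each. Induced genes made up 313 of the tested entries and repressed genes 242. Most of the lists fell into 3 kinds, and the hypertrophic response, cell cycle, stress response, iron and clock lists are described apart from them below. Metabolic and contractile lists held almost no induced gene, immune and matrix lists held few repressed genes, and glycolysis, endothelial, antioxidant and resident fibroblast lists held both.

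**Figure D2:**
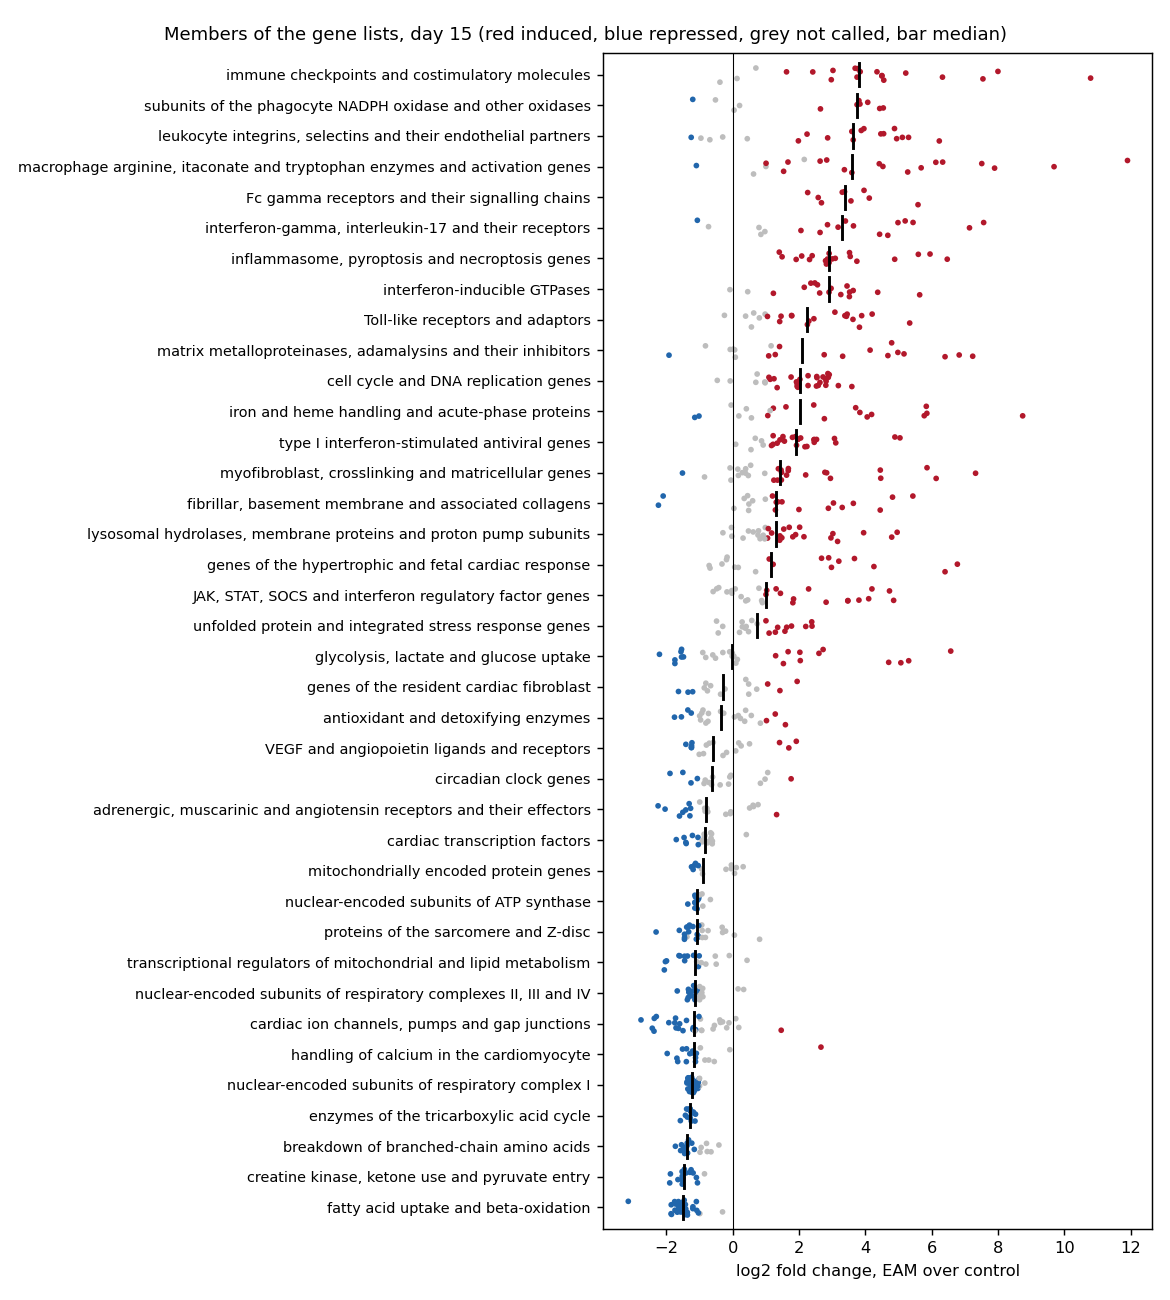
Log2 fold change of EAM over control for each tested member of the gene lists (1 point per gene; red induced, blue repressed, grey not called; black bar, median of the list). Immune lists at the top have medians near 3 to 4, and the lists of mitochondrial and cardiac genes at the bottom lie mostly below 0, with medians near -1 and single members above 0.

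Markers of the cell types a heart portion can hold are given first, since they moved with the programs. Summed over a list, the 8 cardiomyocyte markers took 7646 to 19388 CPM in EAM hearts and 27378 to 32178 CPM in control hearts, and 4 of the 8 were repressed. The 12 macrophage markers summed to 3188 to 4467 CPM in EAM hearts against 519 to 575 CPM, with 8 induced and with Timd4, Lyve1, Folr2 and Cx3cr1, known from resident macrophages, not called. All 10 neutrophil markers rose (736 to 1316 CPM against 22.0 to 99.1 CPM), as did 11 of 12 T cell markers (88.2 to 117 CPM against 16.2 to 18.8 CPM) and all 9 NK and cytotoxic markers (38.6 to 69.7 CPM against 1.81 to 3.08 CPM). No control heart held 10 reads of 6 of these NK genes or of 4 of the T cell genes that rose, so these passed the filter through the EAM hearts alone and had to differ. The remaining 3 NK genes and 7 of the remaining 8 T cell genes rose. Dendritic cell markers rose in 4 of 9 cases, of which 2 had no control heart with 10 reads, and 2 of the other 7 rose. B and plasma cell markers rose in 4 of 7 cases, in 2 when any 1 control heart was left out and in 1 by limma-voom. Mast cell markers stayed uncalled in 6 of 7 cases, and the exception was Hdc, the histamine-forming enzyme, at 3.59. Of 5 thymocyte markers Rag1, Rag2, Dntt and Ptcra had too few reads to test, with 9, 18, 3 and 12 reads of Dntt in EAM hearts against 1 over the control hearts. Cd1d1, which encodes a lipid-presenting molecule also found on other antigen-presenting cells, rose by 2.70.

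Among stromal cells, 3 of 8 endothelial and 4 of 8 mural markers were repressed and none induced, with sums of 958 to 1094 CPM against 1478 to 1921 CPM and of 2528 to 3021 CPM against 3987 to 4544 CPM. Fibroblast markers rose in 2 of 7 cases, 1 of which is the collagen gene Col1a1, while Pdgfra, a receptor that marks fibroblasts, had 0.73 and was not called. No atrial marker of 8 was called. Control heart 4 stood apart in that list with 62.0 CPM of Nppa, the gene of atrial natriuretic peptide, against 584 to 809 CPM in the other 3, and its atrial score was 4.67 against 7.69 to 8.04. How far shifts in cell content account for any program below was not tested.

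Genes of mitochondrial energy metabolism fell. Of 36 nuclear-encoded subunits of respiratory complex I, 33 fell and none rose, with a median of -1.23 and a narrow range from -1.38 to -0.84. Ndufs1, which encodes the largest iron-sulfur subunit, had 892, 927, 909 and 960 CPM in control hearts and 338, 221, 540 and 319 CPM in EAM hearts (-1.38, SE 0.23, adjusted p = 0.000474). The groups did not overlap, and the EAM hearts spread far more widely than the controls. The same separation held for all 36 subunits. Complexes II to IV had 17 of 27 repressed (median -1.14), ATP synthase 11 of 15 (median -1.07) and the tricarboxylic acid cycle all 15 of its enzymes (median -1.28). Cs, the citrate synthase that opens the cycle, fell by 1.20 and Idh3a, a subunit of isocitrate dehydrogenase, by 1.43.

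Transcripts made by the mitochondrial genome itself were less uniform. Of 13 protein genes 5 fell, namely mt-Nd1, mt-Nd2, mt-Nd5, mt-Nd6 and mt-Cytb. mt-Nd1 had 7397, 8374, 7666 and 8034 CPM in control hearts and 3779, 2737, 4525 and 3425 CPM in EAM hearts (-1.12, SE 0.18, adjusted p = 0.000379). In contrast mt-Co2, a subunit of cytochrome c oxidase, had 59.2, 495, 1937 and 739 CPM in the control hearts, a spread that left its change of 0.32 with an SE of 0.75. These counts come after removal of duplicate reads without molecular identifiers, which can compress the most abundant transcripts.

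Genes of fuel use fell as a block. Fatty acid uptake and beta-oxidation had 28 of 30 genes repressed and a median of -1.49. Acadm, the medium-chain acyl-CoA dehydrogenase, had 1229, 1288, 1243 and 1267 CPM in control hearts and 399, 212, 614 and 300 CPM in EAM hearts (-1.72, SE 0.28, adjusted p = 0.000393). Control hearts lay close together, and EAM heart 2 held the least and EAM heart 3 the most of the EAM group. Cpt1b, which passes fatty acids into mitochondria, fell by 1.61, the fatty acid binding protein gene Fabp3 by 1.47 and the uptake receptor gene Cd36 by 1.08. Ucp3, a mitochondrial carrier induced by fatty acids, fell by 3.15 and had 91.5 CPM in control heart 1 against 26.8 to 34.7 CPM in the other controls.

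Breakdown of branched-chain amino acids had 14 of 20 genes repressed (median -1.37). The list of creatine kinase, ketone use and pyruvate entry had 15 of 16 repressed (median -1.48). Ckm, the muscle creatine kinase, had 1466, 1634, 1628 and 1716 CPM in control hearts and 392, 187, 790 and 360 CPM in EAM hearts (-1.90, SE 0.37, adjusted p = 0.00110). Its EAM hearts differed widely among themselves and still lay below all controls. Oxct1 and Bdh1, enzymes of ketone use, fell by 1.50 and 1.88.

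Regulators of these genes were repressed in 11 of 18 cases, with a median of -1.13. Ppara, which encodes PPAR-alpha, had 63.5, 77.8, 78.9 and 79.3 CPM in control hearts and 16.5, 11.1, 29.3 and 15.0 CPM in EAM hearts (-2.06, SE 0.26, adjusted p = 7.34e-05). Ppargc1a, the gene of PGC-1alpha, fell by 1.45 (SE 0.24), and Esrra, the gene of ERR-alpha, by 1.01 (SE 0.09). Within each heart, list scores (mean of log2(CPM + 1) over the members) were also set against the score of the sarcomere list. The score of fatty acid oxidation fell by 0.49 relative to the sarcomere score, that of creatine kinase, ketone and pyruvate genes by 0.41, that of the tricarboxylic acid cycle by 0.29, that of branched-chain amino acids by 0.21 and that of complex I by 0.17, as differences of group means and without a test. By the same measure complexes II to IV had -0.03, ATP synthase -0.03, the regulators -0.08 and the mitochondrially encoded genes 0.81, so energy lists did not all fall further than the sarcomere list. The value of the mitochondrially encoded genes was 0.39 without control heart 1, and the groups overlapped in it. Without EAM heart 4 complexes II to IV had 0.01 and ATP synthase 0.03. The regulators ran from -0.12 to -0.05 as each heart was left out.

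**Figure D3:**
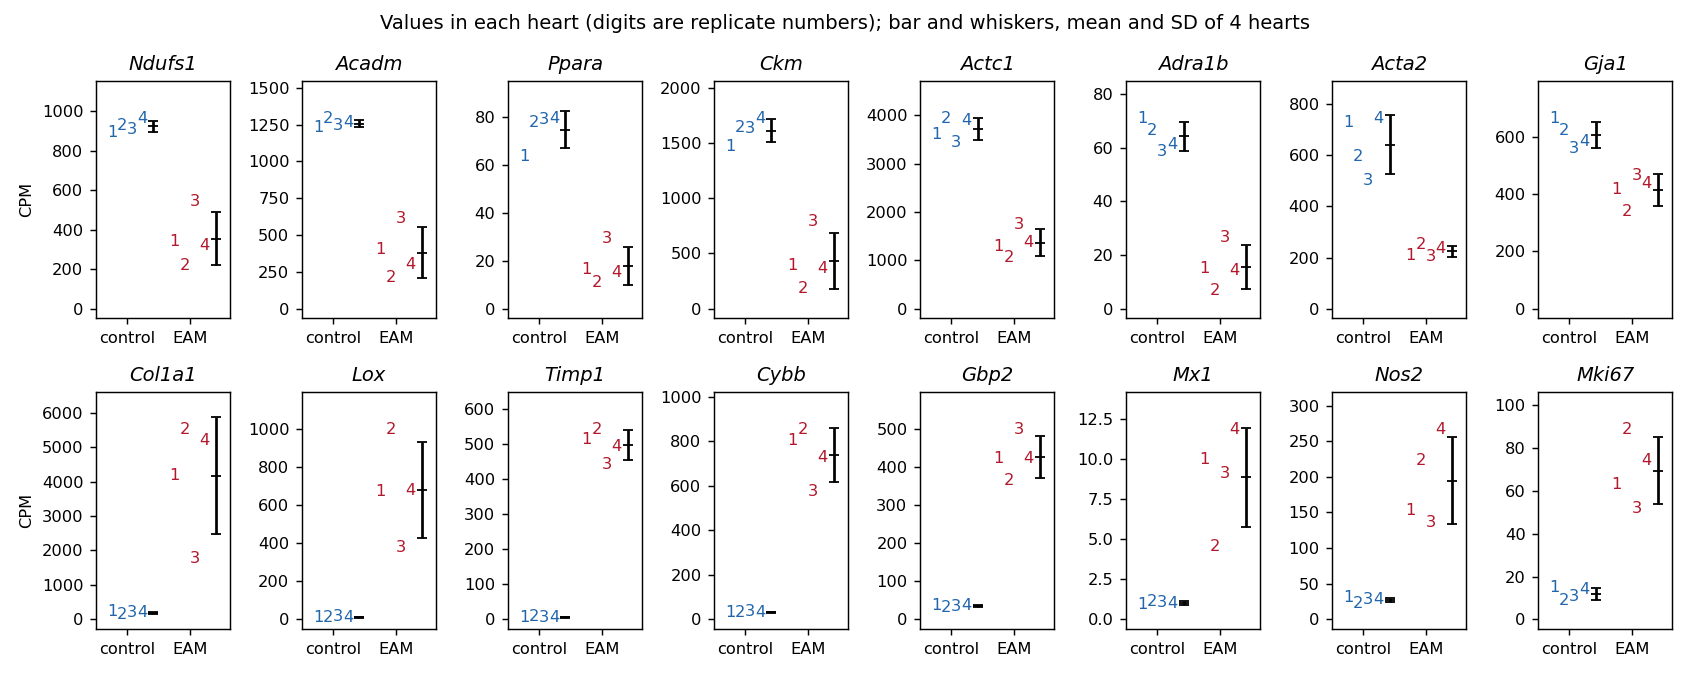
CPM of 16 genes in each heart (digits are replicate numbers, blue control and red EAM), with the mean and SD of the 4 hearts as bar and whiskers. In 15 panels every EAM heart lies outside the range of the control hearts by a wide margin, in Gja1 by a smaller one, and EAM heart 3 is the nearest to the controls in the upper row for every gene but Acta2.

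Glycolysis split by gene copy. Of 29 genes for glucose uptake, glycolysis and lactate handling 11 rose and 7 fell, and the median of -0.01 changed sign under total-count scaling (0.14) and without EAM heart 1, EAM heart 3, control heart 2 or control heart 4. For 4 paralog pairs the form prominent in heart muscle fell and the other form rose. The insulin-responsive transporter gene Slc2a4 had 558, 587, 570 and 623 CPM in control hearts and 169, 108, 262 and 161 CPM in EAM hearts (-1.74, SE 0.23, adjusted p = 0.000102). The widely expressed transporter gene Slc2a1 had 17, 23.3, 25 and 23.5 CPM in control hearts and 130, 171, 123 and 163 CPM in EAM hearts (2.73, SE 0.15, adjusted p = 5.03e-07). The groups were apart in both cases, in opposite directions.

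The enolase genes Eno3 and Eno1 changed by -1.74 and 1.67, the phosphofructokinase genes Pfkm and Pfkp by -1.54 and 1.53, and the phosphoglycerate mutase genes Pgam2 and Pgam1 by -1.54 and 1.30. Ldhb, the lactate dehydrogenase subunit of the heart, fell by 1.48, while Ldha had -0.01 (adjusted p = 0.905). Largest on the induced side were Aldoc (6.58), an aldolase, Hk3 (5.31), a hexokinase of blood cells, and Slc16a3 (4.70), a lactate exporter. In cytochrome c oxidase the muscle forms Cox6a2, Cox7a1 and Cox8b fell by 1.15, 1.67 and 1.37. Their counterparts Cox6a1 (0.33), Cox7a2 (-0.93) and Cox8a (0.16) were not called, so none of them rose, and Cox7a2 went the same way as Cox7a1. These pairs were chosen after their values were seen, and paralogs of close sequence can share reads.

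**Figure D4:**
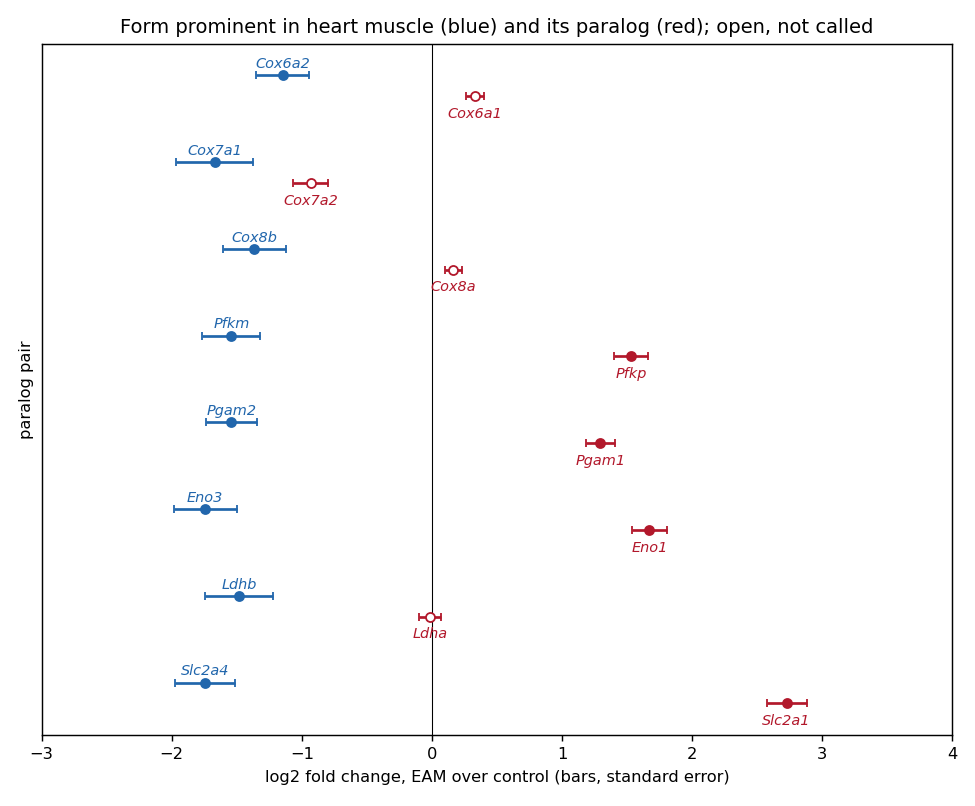
Log2 fold change of EAM over control with its standard error (horizontal axis) for 8 paralog pairs, with the form prominent in heart muscle in blue and its paralog in red. Every blue point lies between -1.74 and -1.15, whereas the red points run from -0.93 to 2.73, with open points not called.

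Genes of the contractile apparatus fell as well. Of 26 sarcomere and Z-disc genes 15 were repressed and none induced (median -1.08). Actc1, the cardiac actin, had 3609, 3921, 3440 and 3898 CPM in control hearts and 1276, 1064, 1734 and 1362 CPM in EAM hearts (-1.45, SE 0.16, adjusted p = 4.05e-05). Myh6, the gene of alpha-myosin heavy chain from which the immunizing peptide derives, had 9713, 11069, 12668 and 12487 CPM in control hearts and 3228, 1856, 8429 and 4154 CPM in EAM hearts. All EAM hearts were lower, but they differed widely among themselves and the change of -1.38 missed the threshold (SE 0.41, adjusted p = 0.0121). Titin and cardiac myosin-binding protein C, whose promoters are printed above, had -1.07 and -1.01 and were called. The intermediate filament gene Des (0.05) and the Z-disc gene Synpo2l (0.81) were not called.

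In calcium handling 12 of 18 genes fell and 1 rose (median -1.17). Atp2a2, the calcium pump SERCA2, fell by 1.21, its inhibitor Pln by 1.40 and the calcium store protein Casq2 by 1.66, whereas Ryr2, the calcium release channel, had -0.97 and was not called. Fkbp1b, which encodes a small partner protein of that channel, was the gene that rose, from 0.853, 1.09, 0.905 and 0.965 CPM to 6.87, 7.35, 4.05 and 5.87 CPM (2.66, SE 0.22, adjusted p = 6.19e-06).

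Ion channels, pumps and gap junction genes were repressed in 18 of 32 cases (median -1.16). Kcnip2, an auxiliary subunit of the channel for the transient outward potassium current, of which Kcnd2 forms a pore, had 382, 433, 382 and 444 CPM in control hearts and 59.4, 17.7, 121 and 43.3 CPM in EAM hearts (-2.76, SE 0.48, adjusted p = 0.000563). It was the deepest fall of the list, and Kcnd2 fell by 1.72. The gap junction gene Gja1 had -0.55 without reaching 2-fold.

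Receptors for catecholamines fell at the alpha-1 and beta-1 types. Of 22 genes for adrenergic, muscarinic and angiotensin signalling 8 fell and 1 rose (median -0.81). Adra1b had 70.6, 66.4, 58.6 and 61.2 CPM in control hearts and 15.0, 6.95, 26.7 and 14.1 CPM in EAM hearts (-2.04, SE 0.32, adjusted p = 0.000308). Adra1a fell by 2.25 and Adrb1 by 1.27, and Prkar2b, a regulatory subunit of protein kinase A, rose by 1.32. Cardiac transcription factors were called in 7 of 22 cases, all repressed, with a median of -0.85. Gata4 fell by 1.05, and Nkx2-5 (-0.92), Tbx20 (-0.65) and Mef2c (-0.72) lay below all controls without reaching 2-fold.

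Genes of the hypertrophic and fetal response were not called at their best-known members. Nppb, the gene of B-type natriuretic peptide, had 362, 313, 314 and 283 CPM in control hearts and 358, 360, 351 and 362 CPM in EAM hearts (0.17, adjusted p = 0.0977). The groups overlapped, and the same was true of Nppa (-0.19, adjusted p = 0.788) and Myh7, the slow myosin heavy chain (-0.17, adjusted p = 0.430). Without control heart 2 the change of Nppa was 0.09, and its full range without 1 heart is given in a later section. Control heart 4 held 62.0 CPM of Nppa, against 584 to 809 CPM in the other controls and 333 to 645 CPM in EAM hearts. Even so 10 of the 18 genes of the list rose and none fell, with a median of 1.16. Myc, a growth regulator, had 3.73, 3.14, 3.88 and 5.07 CPM in control hearts and 35.4, 36.6, 35.3 and 38.2 CPM in EAM hearts (3.20, SE 0.13, adjusted p = 6.11e-08), and the stress genes Atf3 and Ankrd2 rose by 2.98 and 4.26.

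Extracellular matrix genes rose, and Col3a1, Col1a1 and Col1a2 took the most reads in EAM hearts of all induced genes. Collagen genes rose in 13 of 22 cases and fell in 2 (median 1.30). Col1a1, a chain of the fibrillar collagen I (chr11:94936224-94953042, plus strand), had 221, 148, 194 and 198 CPM in control hearts and 4186, 5503, 1760 and 5199 CPM in EAM hearts (4.45, SE 0.36, adjusted p = 5.56e-06). EAM heart 3 held the least by far and still lay well above the highest control. Col3a1 rose by 3.30, and Col12a1 and Col11a1, associated with remodelling tissue, by 4.82 and 5.43. The basement membrane chains Col4a3 and Col4a4, which assemble together, went the other way (-2.24 and -2.10), and Col4a1 had 0.60 and was not called.

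Myofibroblast, crosslinking and matricellular genes rose in 18 of 30 cases and fell in 1 (median 1.42). Lox, the enzyme that crosslinks collagen, had 10.1, 9.96, 14.5 and 12.3 CPM in control hearts and 675, 998, 377 and 676 CPM in EAM hearts (5.86, SE 0.32, adjusted p = 4.17e-07). Spp1 (7.32), Tnc (6.78), Cthrc1 (6.14) and Fn1 (4.45), secreted matrix proteins of wound tissue, rose with it. Postn was called at 1.68, but EAM heart 3 (105 CPM) lay within the control range of 70 to 118 CPM. The gene that fell was Acta2, smooth muscle actin and a usual marker of myofibroblasts (chr19:34241090-34255590, minus strand), with 727, 594, 500 and 742 CPM in control hearts and 209, 250, 204 and 234 CPM in EAM hearts (-1.51, SE 0.14, adjusted p = 1.19e-05). All 4 EAM hearts were close together and below every control. Acta2 is also a mural cell gene, and 4 of the 8 mural markers were repressed. Tagln, another smooth muscle gene, overlapped between the groups (-0.05).

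Metalloproteinases and their inhibitors rose in 13 of 20 cases with 1 repressed (median 2.09). Timp1, which inhibits many of these enzymes, had 4.43, 7.00, 6.44 and 5.61 CPM in control hearts and 513, 540, 441 and 494 CPM in EAM hearts (6.40, SE 0.16, adjusted p = 9.74e-09). Mmp12, the macrophage elastase, rose by 7.24, and Mmp15, a membrane-bound enzyme, fell by 1.92. Genes of the resident cardiac fibroblast had 3 of 16 induced and 3 repressed, shares near those over all genes (18.1% and 12.9%). Their median was -0.30, and -0.14 without EAM heart 2. Tcf21, a transcription factor of that cell, had 22.8, 14.3, 14.3 and 13.6 CPM in control hearts and 14, 8.90, 13.6 and 14.1 CPM in EAM hearts.

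Interferon-responsive genes rose together. Of 17 interferon-inducible GTPases, proteins that attack intracellular pathogens, 15 were induced and none repressed (median 2.91). Gbp2 had 36.6, 31.1, 32.7 and 36.8 CPM in control hearts and 422, 363, 497 and 421 CPM in EAM hearts (3.63, SE 0.12, adjusted p = 1.90e-08). Irgm1 had 67.4, 39.8, 34.4 and 47.1 CPM in control hearts and 519, 408, 568 and 564 CPM in EAM hearts (3.45, SE 0.22, adjusted p = 1.11e-06). Igtp had 112, 39.0, 17.3 and 63.7 CPM in control hearts and 665, 542, 742 and 714 CPM in EAM hearts (3.52, SE 0.49, adjusted p = 0.000146). In all 3 genes, which carry the printed response elements, EAM heart 2 was the lowest and EAM heart 3 the highest of the EAM group, and the controls of Igtp spread widely. Tgtp1 and Tgtp2 are near-identical copies, so their separate values (3.26 and 2.91) are uncertain.

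Antiviral genes best known from type I interferon rose in 23 of 28 cases, none fell, and the median was 1.91. Mx1 had 0.907, 1.15, 1.06 and 0.965 CPM in control hearts and 9.95, 4.52, 9.12 and 11.8 CPM in EAM hearts (3.11, SE 0.31, adjusted p = 1.78e-05). Isg15, a ubiquitin-like protein, rose by 2.53 and Ifit1, a sensor of foreign RNA, by 1.97. Of 28 JAK, STAT, SOCS and interferon regulatory factor genes 15 rose and none fell (median 1.02). Irf1 had 50.4, 45.4, 43.8 and 44.8 CPM in control hearts and 304, 278, 369 and 349 CPM in EAM hearts (2.82, SE 0.11, adjusted p = 4.43e-08). The feedback inhibitors Socs1 and Socs3 rose by 4.85 and 4.73.

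Upstream of these genes, Ifng, the gene of interferon-gamma, had 2 reads in the control hearts together and 5.28, 2.50, 6.78 and 4.81 CPM in EAM hearts, a ratio of 171 with a counting interval of 47.4 to 1415. Its receptor chain Ifngr1 had 0.85 and was not called. The list of interferon-gamma, interleukin-17 and their receptors and lineage factors had 13 of 18 genes induced and 1 repressed (median 3.29), and 4 more had too few reads. Of the 13 induced genes 7 had no control heart with 10 reads and passed the filter through the EAM hearts alone, so that count and median are partly set by the filter. The other 11 tested genes had 6 induced and a median of 2.06. Il17a had no read in control hearts and was at least 26.6-fold higher. Foxp3, the lineage factor of regulatory T cells, rose by 4.43.

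Macrophage activation genes rose on both the arginase and the nitric oxide side. Of 21 genes 17 were induced and 1 repressed (median 3.59). Nos2, the inducible nitric oxide synthase, had 30.6, 22.8, 28.1 and 27.4 CPM in control hearts and 153, 223, 135 and 266 CPM in EAM hearts (2.84, SE 0.22, adjusted p = 3.99e-06). Acod1, which makes itaconate, had 0.267, 0.121, 0.213 and 0.241 CPM in control hearts and 184, 159, 194 and 184 CPM in EAM hearts (9.69, SE 0.15, adjusted p = 2.18e-09). No control heart held 10 reads of Acod1 or Arg1, so both passed the filter through the EAM hearts alone. Unlike Arg1, which differed widely between EAM hearts, Acod1 was nearly level across them. Lpl, the lipoprotein lipase of muscle and macrophages, was the repressed member (-1.09), a call that was lost under total-count scaling (-0.95), in the test for more than 2-fold and without EAM heart 2 (-0.90).

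Phagocyte effector genes followed. Subunits of the NADPH oxidase and related oxidases were induced in 7 of 11 cases and repressed in 1 (median 3.75). Cybb, the catalytic subunit, had 32.3, 30.7, 33.5 and 30.5 CPM in control hearts and 804, 851, 573 and 729 CPM in EAM hearts (4.54, SE 0.14, adjusted p = 1.74e-08). Duox2, an oxidase of epithelia, fell by 1.20 at about 1 to 2 CPM. All 20 inflammasome, pyroptosis and necroptosis genes rose (median 2.91), among them the sensor gene Nlrp3 (4.89), the protease gene Casp1 (2.91) and the pore-forming Gsdmd (2.32). Of these 20, 1 had no control heart with 10 reads and passed the filter through the EAM hearts alone. All 9 tested Fc gamma receptor and signalling genes rose (median 3.37). The other 2 genes of the list, Fcer1a and Ms4a2 of the IgE receptor, had too few reads to test. Of the 9, 2 had no control heart with 10 reads and passed the filter through the EAM hearts alone. Toll-like receptors and adaptors rose in 17 of 23 cases (median 2.25), with Tlr2, a receptor for bacterial lipopeptides, at 3.89 and Tlr4, that for lipopolysaccharide, at 1.46.

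Lysosomal genes rose in 18 of 30 cases and none fell (median 1.30). The cathepsin gene Ctss, which works in antigen presentation, had 35.5, 39.2, 40.5 and 41.4 CPM in control hearts and 1206, 1344, 672 and 1129 CPM in EAM hearts (4.80, SE 0.22, adjusted p = 1.59e-07). Lamp1, a membrane protein of all lysosomes, lay above all controls at 0.48 and was not called. The induction of this list was thus uneven, and its range ran from -0.29 to 4.96.

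Molecules of leukocyte contact rose as well. Leukocyte integrins, selectins and their endothelial partners had 14 of 19 genes induced and 1 repressed (median 3.63). Itgb2, the shared chain of the leukocyte integrins, had 9.65, 12.7, 11.4 and 11.8 CPM in control hearts and 440, 548, 321 and 490 CPM in EAM hearts (5.30, SE 0.19, adjusted p = 3.23e-08). On the endothelial side Vcam1 rose by 1.98 and Sele, the gene of E-selectin, by 2.86. Itgad, an integrin chain of some macrophages, fell by 1.25 at under 2 CPM. Immune checkpoints and costimulatory molecules had 17 of 20 genes induced and none repressed (median 3.80). Cd274, the gene of PD-L1, had 23.1, 17.4, 16.4 and 17.3 CPM in control hearts and 243, 196, 317 and 252 CPM in EAM hearts (3.76, SE 0.17, adjusted p = 1.48e-07). The receptors on lymphocytes were at lower levels, and 6 of the 17 induced genes of the list had no control heart with 10 reads and passed the filter through the EAM hearts alone. Pdcd1, the gene of PD-1, had 4.01 to 5.26 CPM in EAM hearts (4.50) and Tnfrsf9, a costimulatory receptor, 17.1 to 50.7 CPM (8.0).

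Cell cycle and DNA replication genes rose in 27 of 33 cases and none fell (median 2.03). Mki67, present in all dividing cells, had 14.7, 8.69, 10.5 and 13.8 CPM in control hearts and 63.1, 88.5, 51.8 and 74.1 CPM in EAM hearts (2.54, SE 0.21, adjusted p = 5.28e-06). Top2a and Ccnb1, needed for mitosis, rose by 2.82 and 3.59, and Mcm2, a part of the replication helicase, by 1.13. Bulk RNA does not show which cells divided.

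Iron, heme and acute-phase genes rose in 13 of 20 cases and fell in 2 (median 2.03). Of the 13, 2 had no control heart with 10 reads and passed the filter through the EAM hearts alone. The other 18 tested genes had 11 induced and a median of 1.42. Saa3, an acute-phase protein made in tissues, had 0.747, 1.15, 1.28 and 0.845 CPM in control hearts and 462, 561, 335 and 374 CPM in EAM hearts (8.74, SE 0.25, adjusted p = 1.40e-08). Lcn2, which withholds iron from bacteria, rose by 5.78, and Hmox1, which breaks down heme, by 3.71. The iron importer Tfrc (-1.14) and the exporter Slc40a1 (-1.02) both fell, and for Tfrc control heart 3 (86.8 CPM) lay within the EAM range.

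VEGF and angiopoietin genes had 5 of 19 repressed and 3 induced (median -0.58), where 12.9% of all genes were repressed and 18.1% induced. Vegfa, the main angiogenic ligand, had 304, 324, 356 and 321 CPM in control hearts and 122, 126, 151 and 151 CPM in EAM hearts (-1.25, SE 0.10, adjusted p = 3.93e-06). Its receptor Kdr fell by 1.24, while Angpt2, which loosens vessels, rose by 1.41. Antioxidant genes had 4 of 23 repressed and 3 induced (median -0.36), close to the shares over all genes, with the peroxidase gene Gpx1 at 1.59 and mitochondrial Prdx3 at -1.25. Unfolded protein and integrated stress response genes had 10 of 21 induced and none repressed (median 0.74). The serine and asparagine synthesis genes Phgdh (2.39) and Asns (2.20) rose, and the chaperone gene Hspa5 (0.38) and the regulators Atf4 (0.58) and Ddit3 (0.29) were not called. Of 18 circadian clock genes 4 fell and 1 rose, where 12.9% of all genes fell and 18.1% rose. Their median was -0.62, and -0.39 without EAM heart 2. Arntl, the clock activator, had -1.50, Nr1d1 -1.89 and Per2 1.76. The hour of collection was not given in the sources used here.

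EAM hearts of the same day were not equal in depth of change. EAM heart 3 was the nearest to the controls for 84.1% of repressed and 64.6% of induced genes, and EAM heart 2 the farthest for 77.3% and 45.5%. A first principal component held 87.9% of the variance and separated the groups, and a second with 3.59% separated EAM heart 2 from EAM heart 3. Of 17 lists with mostly repressed calls, EAM heart 2 had the score farthest from the controls in 15 and EAM heart 3 the nearest in 15. All 33 repressed complex I genes had their lowest value in EAM heart 2 and their highest EAM value in EAM heart 3. All 13 induced collagen genes had their lowest EAM value in EAM heart 3.

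Interferon genes ordered the hearts differently. EAM heart 2 had the lowest EAM value in 14 of 15 induced GTPases and in 21 of 23 induced antiviral genes. Of 21 lists with at least as many induced as repressed calls, 7 had the score nearest to the controls in EAM heart 2, these 2 included. The score of the GTPases was 6.96, 6.32, 6.83 and 6.97 in EAM hearts against 3.71 to 4.49 in control hearts. That of the antiviral genes was 5.70, 5.25, 5.80 and 5.74 against 3.73 to 3.87. EAM heart 2, which had the lowest scores of complex I, the tricarboxylic acid cycle and fatty acid oxidation, was thus lowest of the EAM hearts in both interferon lists while remaining far above the controls. The score of the mitochondrially encoded genes had another order, with the lowest value in EAM heart 4 (9.87). EAM heart 2 also had the highest values for the neutrophil list (score 6.55 against 5.24 to 5.63 in the other EAM hearts) and for the B and plasma cell list (4.0 against 2.0 to 2.95). Chil3, a myeloid lectin, reached 422 CPM in EAM heart 2 against 63.0 to 72.8 CPM. NK and cytotoxic markers were lowest in that heart, with a sum of 38.6 CPM against 58.3 to 69.7 CPM in the other EAM hearts. With 4 hearts this order is a description without a test.

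**Figure D5:**
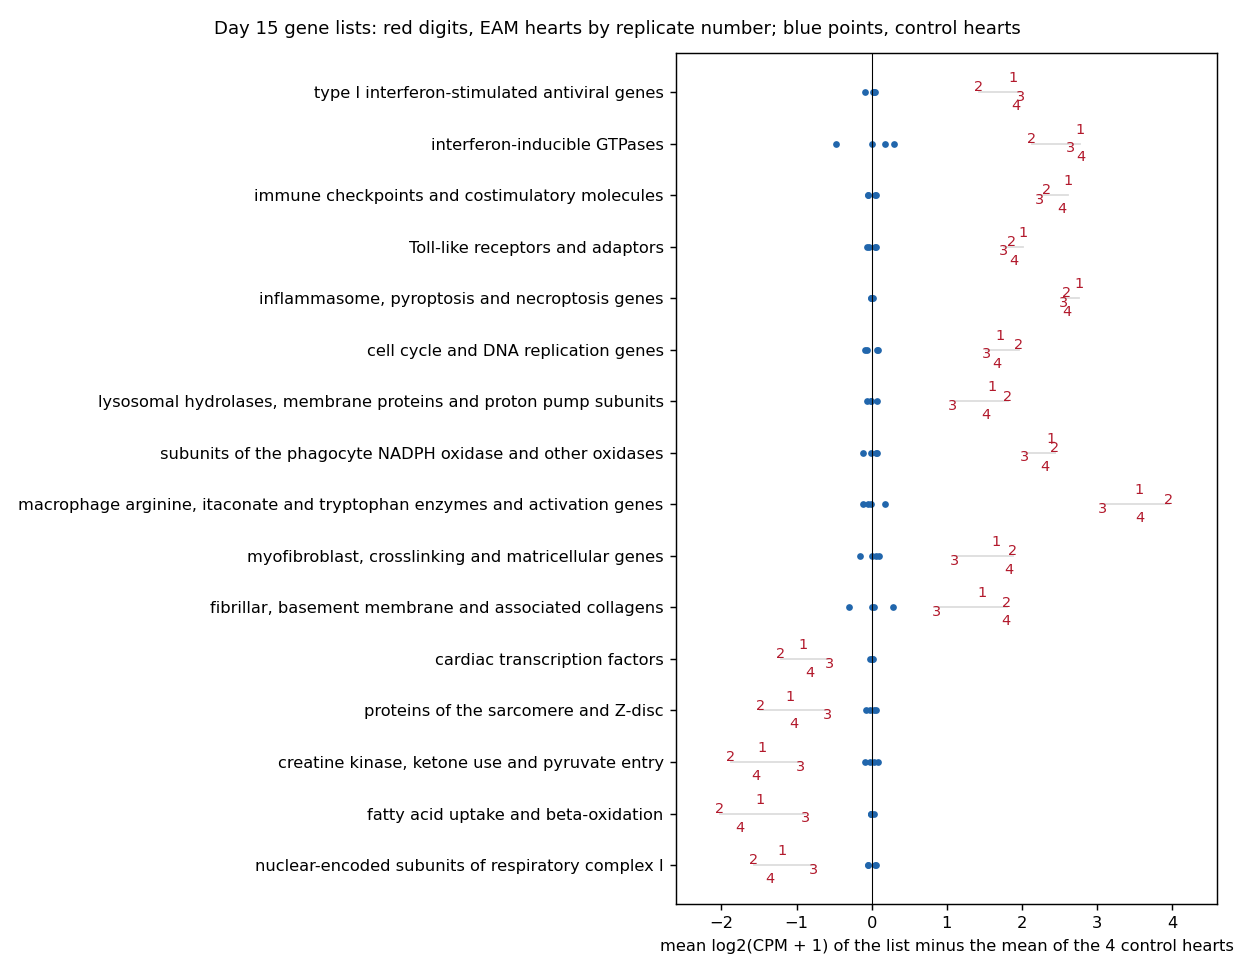
Score of 16 gene lists in each heart, as the mean log2(CPM + 1) of the list minus the mean of the 4 control hearts (horizontal axis), with EAM hearts as red digits and control hearts as blue points. In the mitochondrial, cardiac and matrix lists EAM heart 3 is nearest to the controls, and in the 2 interferon lists at the top EAM heart 2 is.

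Leaving out EAM heart 3 raised the repressed genes from 17 to 24 in complexes II to IV, and leaving out EAM heart 2 lowered those of ATP synthase from 11 to 4, of mitochondrially encoded genes from 5 to 2, of the sarcomere from 15 to 10 and of cardiac transcription factors from 7 to 4. Leaving out EAM heart 1 also left 10 repressed sarcomere genes, and 2 repressed clock genes remained without EAM heart 1 or EAM heart 4. Under total-count scaling 1 gene of ATP synthase and 3 mitochondrially encoded genes were repressed. Of the 33 repressed complex I genes 27 to 33 kept the call when a heart was left out, and of the 28 of fatty acid oxidation 25 to 28 did. With 3 EAM hearts the filter also drops genes with few control reads: without any 1 of them 11 of the 17 induced checkpoint genes and 6 of the 13 induced genes of the interferon-gamma list kept the call, with 14 and 11 genes tested without EAM heart 2. Against a test for more than a 2-fold change, 490 repressed and 1972 induced genes remained, and no complex I, tricarboxylic acid cycle or ATP synthase gene was among the repressed ones.

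The D15 effect was set against those of days 10 and 21, each with its own 4 control hearts. Each contrast came from a separate fit of the hearts of both days compared. Against D10 the effect was higher for 993 of 16039 genes (6.19%) and lower for 1308 (8.16%). Scaling by total counts turned this split to 1136 higher and 902 lower, the replicate block to 1311 and 1192, and without EAM heart 1 of D10 the counts were 2126 and 1854. The lower effects included 32 of 36 complex I genes, 14 of 15 tricarboxylic acid cycle genes and 26 of 30 fatty acid genes. Their medians at D10 were -0.12, -0.19 and -0.11, against -1.23, -1.28 and -1.49 at D15. The effect on matrix was higher than at D10 for 12 of 22 collagen genes and 18 of 30 matrix remodelling genes. No interferon-inducible GTPase of 17 and no antiviral gene of 28 differed from D10 by edgeR's quasi-likelihood test, where 1 and 10 had an unadjusted p under 0.05, and the likelihood ratio test called 0 and 1. Their medians were 1.82 and 1.06 at D10 against 2.91 and 1.91 at D15, and no member was called at D10 itself, where 13 of 16 and 13 of 28 had an unadjusted p under 0.05. This does not show that the effects were equal.

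Against D21 fewer genes differed, with 151 of 16176 higher at D15 (0.933%) and 278 lower (1.72%), and total-count scaling turned the split to 246 higher and 143 lower. Complex I held 18 of the lower genes and no higher one, with a median of -0.12 at D21. Fatty acid oxidation had a median of -0.54 at D21 and 3 of 30 genes differed. The effect on Acta2 was lower at D15 than at D10 by 1.39 (adjusted p = 0.00657) and than at D21 by 1.36 (adjusted p = 0.00970) on the log2 scale. That on Nos2 was higher by 2.41 in both contrasts (adjusted p = 0.00149 and 0.00701). When replicate numbers entered the fit as a block, no gene differed from D21 (smallest adjusted p = 0.0141), so the calls for Acta2, Nos2 and the 18 complex I genes against D21 were all lost. No GTPase or antiviral gene was called against D21 by edgeR's quasi-likelihood test (8 and 8 with an unadjusted p under 0.05, 1 and 0 by the likelihood ratio test), with medians of 1.41 and 1.15 at D21 against 2.91 and 1.91 at D15, which again does not show equal effects. The counts of all genes depend on single hearts and ran from 40 to 844 and from 46 to 1069 as each was left out in turn. The highest came without EAM heart 4 of D21, and without EAM heart 3 of D15 they were 187 and 746. The D21 EAM libraries carry another library code than the rest, D21 controls included, so in the D21 effect the code and EAM cannot be told apart. Atrial markers also moved with the days, with a median EAM effect of 1.99 at D10, -0.76 at D15 and -6.89 at D21, where 8 of 8 were repressed. Of these 8 markers 4 had a lower effect at D15 than at D10 and 5 a higher effect than at D21. Adipocyte markers had medians of 1.15, 0.21 and -3.92, and mesothelial markers of 3.65, 0.18 and 0.29. No atrial, adipocyte or mesothelial marker was called induced at D10, and none was called in either direction at D15. The part of these markers in the differences between days was not tested.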

How the data were processed

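RNA from 24 hearts was sequenced as 75 bp read pairs from directional libraries. The authors mapped the reads to GRCm38 with HISAT2 2.0.4, removed duplicate reads with Picard without molecular identifiers, which can compress abundant transcripts, and deposited the featureCounts counts per Ensembl gene without normalization. Gene symbols came from GENCODE M21 for 40340 of 41388 genes, and 92 spike-in features held 0 reads.

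Hearts were grouped by their labels, with replicate numbers from the titles. Nothing says more about how hearts of a group relate, so p-values measure the spread between these samples. D15 hearts were compared with edgeR 4.0.16 (TMM, quasi-likelihood test, FDR under 0.01 and at least 2-fold) in R 4.3.3, after the filter of 10 reads in at least 4 of the 8 hearts. Each contrast between days used only the hearts of the days compared, in a fit of its own with the same filter. On simulated counts for D15 with 14981 genes, 95.9% of 193 genes changed 4-fold were recovered, with 1 false call. Tables and figures used Python 3.11.15 (matplotlib 3.10.9, numpy 2.4.6, pandas 2.3.3, scipy 1.17.1). Promoter windows were available for 72.6% of tested genes, and of 7 motifs searched 2 are shown.

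The gene lists and the comparisons were chosen with earlier results of these data known. Named genes are those with the 10 largest folds (mean of at least 1 CPM, no overlap) and the 10 highest levels in each direction, the first 3 tested genes of each list, up to 2 called genes against the direction of most of a list, and Ptprc. Other members were named after their values were seen. Alternatives were other tests (DESeq2 1.42.0, limma 3.58.1 voom, edgeR's likelihood ratio test and glmTreat), scalings, filters and FDR alone, the controls of all days together, the replicate number as a block, and each library left out in turn. Some genes that the rule names are not reported here.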

Additional observations from a re-analysis of the deposited data

Results flagged for a closer look

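Hearts of a group were set apart where the highest or lowest of 4 values lay beyond Dixon's 95% limit, which chance exceeds in about 1 in 20 sets. It was exceeded in 25 of 431 sets (5.8%), and 11 of the 25 were in control heart 1. In control heart 1 the values were low for Ppara (63.5 CPM against 77.8 to 79.3 CPM in the other controls), Nkx2-5 (97.5 against 111 to 113 CPM), Bckdhb (100.3 against 113 to 115 CPM), Mccc1 (149 CPM), Socs3 (8.85 CPM) and Nlrp3 (1.23 CPM). They were high there for Mycn (16.2 CPM), Tcf21 (22.8 CPM) and Cd274 (23.1 CPM). Its score, in log2(CPM + 1), was 8.73 for fatty acid oxidation, the highest of the controls, and 3.41 for platelet and erythroid genes, the lowest.

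In EAM heart 3 the collagen gene Col3a1 was low (3873 CPM against 6679 to 7156 CPM in the other EAM hearts), as was Pdcd1 (4.01 CPM), and Lrrc10b (2.25 CPM) and Pfkfb1 (10.9 CPM), both repressed genes, were high. In EAM heart 2 Rnase2a was high (18.0 CPM against 1.71 to 3.61 CPM), and Tcf21 (8.90 CPM) and the resident fibroblast score (5.71) were low. Casp1 was high in EAM heart 1 (43.4 CPM against 37.2 to 37.9 CPM), and the score of the mitochondrially encoded genes was low in EAM heart 4 (9.87). Control heart 4 had low scores of atrial genes (4.67) and adipocyte genes (1.81 against 3.21 to 3.28). Control heart 2 had low scores of resident fibroblast genes (5.89) and antiviral genes (3.73), and control heart 3 had the lowest Frmpd3 (5.69 CPM).

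The effect of EAM differed between days by edgeR's test of the difference for 993 genes higher and 1308 lower at D15 than at D10, and for 151 higher and 278 lower at D15 than at D21. Program lists in which at least 50% of the members had a lower effect at D15 than at D10 were complex I (32 members), complexes II to IV (15), ATP synthase (9), the tricarboxylic acid cycle (14), fatty acid oxidation (26), branched-chain amino acids (14) and creatine kinase, ketone and pyruvate genes (13). A higher effect at D15 was found for 12 members of the collagen list, 18 of matrix remodelling, 10 of metalloproteinases and inhibitors, 12 of Toll-like receptors and adaptors and 5 of Fc gamma receptors. Against D21, 18 members of complex I had a lower effect at D15. Among cell type markers, 4 of 8 cardiomyocyte, 4 of 8 atrial and 3 of 6 mesothelial markers had a lower effect and 6 of 10 neutrophil markers a higher effect at D15 than at D10, and 5 of 8 atrial and 2 of 4 adipocyte markers had a higher effect than at D21.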

How the results depend on the processing

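Of 136 called genes named by rule, 80 kept their call under every alternative, 56 lost it under at least 1, and 0 changed sign. Counts of induced and repressed genes stayed within 1.5 times of 2838 and 2019 under DESeq2 (2842 and 2108), voom, the likelihood ratio test, RLE, other filters and all 12 control hearts. Without 1 heart they ran from 2331 to 2828 and from 1667 to 2245. A test for more than 2-fold left 490 repressed genes, and FDR alone gave 5212 higher and 4888 lower. Nppa turned to 0.10 with 12 controls, 0.15 with the replicate block, 0.32 with voom and 0.0859 without control heart 2 (-0.55 to 0.0859 without 1 heart), and Myh7 to 0.0155 without EAM heart 2 (-0.30 to 0.02).

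Replicate numbers did not pair the D15 hearts: deviations of same-numbered hearts correlated between -0.0913 and 0.0350, with 0 of 4 pairs over 0.1, and 0 of 4 EAM hearts correlated best with their own number. The block gave 2772 and 2008 genes. Differences from D21 were the least stable: 346 and 571 genes by the likelihood ratio test, 246 and 143 by total counts, 40 to 844 and 46 to 1069 without 1 heart, and 0 and 0 with the replicate block, where 6932 genes had an unadjusted p under 0.05 and the smallest adjusted p was 0.0141. Differences from D10 ran from 662 to 2126 and from 919 to 1854 without 1 heart. The cause was not tested. Depth limits genes near 0.120 to 0.172 CPM.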

Other observations

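Some members of the gene lists had too few reads to test and are given as reads. The interleukin-12 subunit gene Il12b had 0 reads in every control heart and 13, 5, 7 and 7 reads in EAM hearts 1 to 4. The gene of interleukin-21, Il21, had 0 reads in every control heart and 7, 15, 4 and 4 in EAM hearts. Marco, a scavenger receptor of macrophages, had 1 read over the control hearts and 26, 118, 4 and 27 reads in EAM hearts, with most in EAM heart 2. The eosinophil granule gene Prg2 had 7, 47, 3 and 12 reads in EAM hearts, and Glycam1, a ligand of L-selectin in lymphoid vessels, had 4, 31, 1 and 2, again with most in EAM heart 2. Noxa1, an oxidase subunit, had no read in any of the 8 hearts. On the cardiac side Adra2c, an alpha-2 adrenergic receptor, had 12, 8, 18 and 13 reads in control hearts and 3, 2, 8 and 4 in EAM hearts.

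Among induced genes with the most reads were genes usually taken as housekeeping. Actb, the cytoplasmic actin, had 555, 529, 478 and 519 CPM in control hearts and 1965, 1799, 1665 and 1935 CPM in EAM hearts (log2 fold change 1.82, SE 0.10, edgeR adjusted p = 5.55e-07). Eef1a1, a translation elongation factor, had 1055 to 1199 CPM in control hearts and 2058 to 2585 CPM in EAM hearts (1.02). Both were apart between the groups without overlap. Among repressed genes with the most reads was Mb, the oxygen-binding myoglobin, with 4089 to 4525 CPM in control hearts and 962 to 2453 CPM in EAM hearts (-1.35).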
